A study of Mus musculus with 2 samples.

Results

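Mir320, Mir484, Mir877 and Mir1224 are 4 mouse miRNA genes whose hairpins are known to be made without the nuclease Drosha. They were chosen by gene name in the annotation, with earlier results of these data known, and make up 4 of the 2202 miRNA genes counted. Their values come from adrenal glands of 4-day-old female mice of strain B6CASTF1/J, the first-generation cross between C57BL/6J and CAST/EiJ, with no treatment in the labels. The 2 libraries form 1 group, biological replicates 1 and 2, described as different females although their labels carry 1 shared donor identifier, and their spread may in part be technical. Total RNA of whole tissue was sequenced as small RNA, and reads of the parental alleles were not told apart. In such tissue, fewer cells of a type and less of a miRNA per cell cannot be told apart.

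Most miRNAs are cut from a long transcript by the Microprocessor, a complex of Drosha and its partner DGCR8, and then trimmed by Dicer. Mirtrons skip the cut by Drosha: a short intron is spliced out, its lariat is opened, and the whole intron folds into the hairpin that Dicer takes. Promoter-derived hairpins also skip it: a short capped RNA begins at the hairpin's own start and ends soon after, and Dicer takes it as it is. Mir320 and Mir484 are known as the promoter-derived kind, and Mir877 and Mir1224 as mirtrons. Whether the reads measured here arose without Drosha was not tested, since the tables hold only a count per hairpin and neither cap nor arm.

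The hairpins are shown because a mirtron carries the ends of the intron it fills. The RefSeq table (GRCm38.p6) held hairpins of 3 of the 4 members, Mir484, Mir877 and Mir1224. They are written 5′ to 3′, with the mature miRNAs in capitals.
Mir484, chr16:14159626-14159692, plus strand: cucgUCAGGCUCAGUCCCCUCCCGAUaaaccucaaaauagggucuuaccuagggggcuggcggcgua
Mir877, chr17:35960730-35960814, minus strand: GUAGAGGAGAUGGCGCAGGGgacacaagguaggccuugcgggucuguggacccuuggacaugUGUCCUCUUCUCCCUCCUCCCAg
Mir1224, chr16:20604452-20604536, plus strand: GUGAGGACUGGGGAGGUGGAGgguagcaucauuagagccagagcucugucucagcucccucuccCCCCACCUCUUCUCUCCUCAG

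Both mirtron hairpins began with GU and ended with AG, the bases that mark the ends of most introns, whereas the Mir484 hairpin began with CU and ended with UA. Of the 968 miRNA genes with a hairpin in the RefSeq table, 30 (3.10%) had GU and AG at the ends. Among them, 17 filled an annotated intron within 5 bases (annotated mirtrons, both mirtron members included), and 15 of these (88.2%) had such ends. The ends are thus shared by most annotated mirtrons and are not particular to the members. The 5p arms of Mir877 and Mir1224 started at base 1 of the hairpin. The 3p arm of Mir1224 ended at its last base, and that of Mir877 ended 1 base before it. Mature miR-484 began at base 5. Near their 3′ ends both mirtrons carried the run of pyrimidines that precedes the end of most introns. C and U made up 90% of the last 20 bases in Mir877 and 85% in Mir1224, against 40% in Mir484. The median was 55% over the 968 hairpins and 75% over the 17 annotated mirtrons.

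The seed, bases 2 to 8 of a mature miRNA and the main determinant of its targets, is in capitals in the following lines, shown to ask whether the members share targets by seed.
miR-484: uCAGGCUCaguccccucccgau
miR-877-5p: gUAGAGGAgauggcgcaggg
miR-877-3p: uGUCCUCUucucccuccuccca
miR-1224-5p: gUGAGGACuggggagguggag
miR-1224-3p: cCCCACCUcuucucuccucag

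These 5 seeds all differed, and 0 other genes in the table carried any of them. The 3p arms of the mirtrons shared a run of 9 bases, CCUCUUCUC, which begins within both seeds at different positions and lies in the pyrimidine-rich end of both introns. The hairpins held 58.2% G and C in Mir484, 61.2% in Mir877 and 60.0% in Mir1224. The median was 51.7% over the 968 hairpins and 60.5% over the 17 annotated mirtrons. RNAfold gave minimum free energies of -24.6 kcal/mol for Mir484 (67 bases), -36.5 kcal/mol for Mir877 and -42.8 kcal/mol for Mir1224 (85 bases each). None of the 3 hairpins shared a run of 18 bases with another hairpin of the table, which does not cover every miRNA gene. Reads that mapped to several places were counted for no gene, so such runs could have lowered a count.

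In GENCODE M21 (mm10) both mirtrons filled a whole intron. Mir877 (ENSMUSG00000077931.1) filled intron 12 of the 22 introns of Abcf1-201, base for base, and lay on the strand of Abcf1, a gene with a role in the start of translation. Mir1224 (ENSMUSG00000080669.1) filled the last intron of 4 transcripts of Vwa5b2, which encodes a protein with a von Willebrand factor A domain, also base for base. Across the table, 22 of the 2202 miRNA genes filled an annotated intron exactly on its strand. Neither mirtron hairpin overlapped an exon of a protein-coding transcript.

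The promoter-derived hairpins lay beside starts of genes on the opposite strand. Mir320 (ENSMUSG00000065528.1) spans chr14:70443510-70443591, plus strand, and 62 bases separate it from the start of Polr3d-201, which runs the other way and encodes a subunit of RNA polymerase III. Mir484 (ENSMUSG00000070074.1) was farther from a start, with 358 bases between it and the start of Marf1-201, which also runs the other way. Marf1 encodes a regulator of RNA stability and of meiosis in oocytes. A second isoform, Marf1-202, starts 3658 bases away on the other side and spans the whole Mir484 hairpin on the opposite strand. The last 19 bases of the Mir484 hairpin lie opposite an untranslated exon of that isoform. On its own strand, the nearest protein-coding start was that of Nde1-201, 3582 bases downstream. A window of 250 bases around annotated starts therefore took in Mir320 but not Mir484, and a window of 500 bases took in both.

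**Figure D1:**
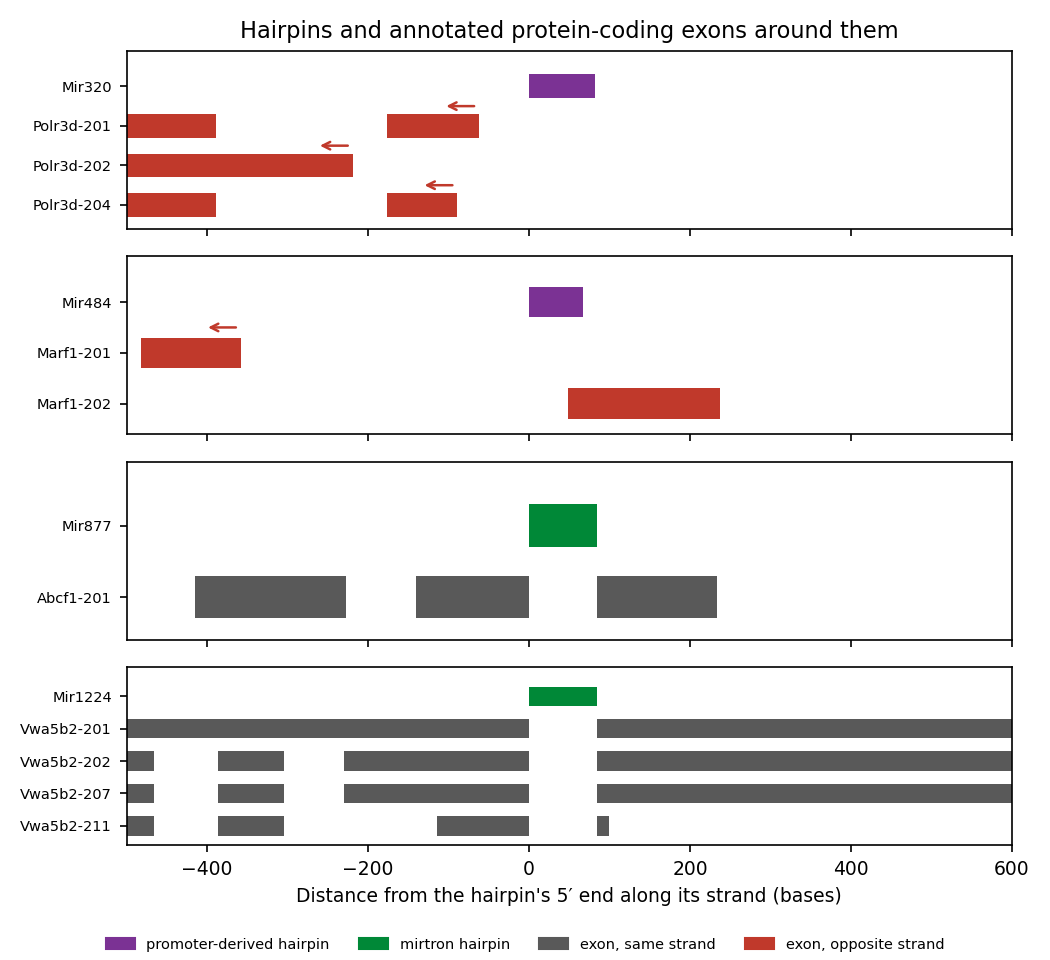
Distance in bases from each hairpin's 5′ end along its strand (horizontal) is drawn against the hairpin and each protein-coding transcript with an exon nearby (rows), with exons as boxes and transcript starts as arrows. The hairpins of Mir877 and Mir1224 fill the gap between exons of their own strand. Those of Mir320 and Mir484 sit upstream of the nearest starts, which point away, with 62 and 358 bases between. Mir484 also lies within the span of Marf1-202 on the opposite strand.

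The libraries held 4960537 (replicate 1) and 4506482 (replicate 2) reads on the strand of miRNA genes. Levels are in CPM, reads scaled to 1000000 miRNA reads, and 1 read was worth 0.202 CPM in replicate 1 and 0.222 CPM in replicate 2. The libraries differed in miRNAs typical of other tissues. The 7 listed epithelial genes summed to 4709 CPM in replicate 1, against 1165 CPM in replicate 2, and the 4 kidney genes to 375 and 146 CPM. The 3 erythroid genes summed to 1059 CPM in replicate 1, against 287 CPM in replicate 2, the 5 striated muscle genes to 1249 and 8686 CPM, and endothelial Mir126a had 156832 and 54709 CPM. Leukocyte genes had 1151 and 1475 CPM and liver Mir122 1449 and 2638 CPM. Not all genes of a list moved with its sum. By the exact binomial test described below, 6 epithelial calls went with their sum and 1 against it. For the erythroid list these counts were 2 and 1. Only 3 of the muscle genes were detected, each with a call toward replicate 2. The muscle sum was nearly all Mir206, at 1239 and 8627 CPM, and Mir451a gave 738 and 184 CPM of the erythroid sum. Of the neuroendocrine genes (Mir375, Mir7b and Mir137), listed for the adrenal medulla, all 3 were detected, at 40471 and 45933 CPM in sum; no listed marker was at 0 in both libraries. The part of these differences in the members' values was not tested.

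All 4 members were present in both libraries, and the promoter-derived hairpins were far above the mirtrons. With at least 10 reads in both libraries, 4 of 4 members were detected, beside 17.1% of all miRNA genes (377 of 2202). Of the 2202 genes, 1371 had 0 reads in both libraries. Since the members were chosen with earlier results of these data known, their detection is a description and not a result about them. Together they held 0.262% of the miRNA reads in replicate 1 and 0.242% in replicate 2. The promoter-derived pair made up 96.4% of the members' reads in replicate 1 and 97.9% in replicate 2. On the opposite strand each member had 0 reads in both libraries, which allows up to 6.05e-05% of the miRNA reads in replicate 1 and 6.66e-05% in replicate 2 (3 counts of the total).

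Mir320 was the highest member. It had 6985 reads in replicate 1 and 7356 in replicate 2, or 1408 and 1632 CPM (mean 1520 CPM ± 159, SD, n = 2). Its share of the miRNA reads was 0.141% in replicate 1, with a 95% Wilson interval of 0.138 to 0.144. In replicate 2 it was 0.163%, with 0.160 to 0.167. Among all miRNA genes it ranked 82 in replicate 1 and 64 in replicate 2.

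Mir484 followed with 5568 reads in replicate 1 and 3324 in replicate 2, or 1122 and 738 CPM (mean 930 CPM ± 272, SD, n = 2). Its share was 0.112% in replicate 1 (Wilson 0.109 to 0.115), against 0.0738% in replicate 2 (0.0713 to 0.0763). It ranked 87 and 94, so both promoter-derived hairpins stood among the 100 highest genes in each library. The values of Mir320 and Mir484 did not overlap between the 2 genes, since the lower value of Mir320 was above the higher one of Mir484.

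Mir877 was the higher mirtron. It had 406 reads in replicate 1 and 197 in replicate 2, or 81.8 and 43.7 CPM (mean 62.8 CPM ± 27.0, SD, n = 2). Its share was 0.00818% in replicate 1 (Wilson 0.00743 to 0.00902), against 0.00437% in replicate 2 (0.00380 to 0.00503). It ranked 225 and 236, and its mean lay below the median of the detected genes, 150 CPM.

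Mir1224 was the lowest member, with 59 reads in replicate 1 and 33 in replicate 2, or 11.9 and 7.32 CPM (mean 9.61 CPM ± 3.23, SD, n = 2). Its share was 0.00119% in replicate 1 (Wilson 0.000922 to 0.00153), against 0.000732% in replicate 2 (0.000521 to 0.00103), and its rank 306 and 321. The counting intervals of the 2 libraries overlapped for Mir1224 alone among the members. All intervals cover the counting error of reads only and leave out the spread between animals. Reads copied by PCR and not marked by molecular identifiers can stem from 1 molecule, so for molecules the intervals may be too narrow.

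**Figure D2:**
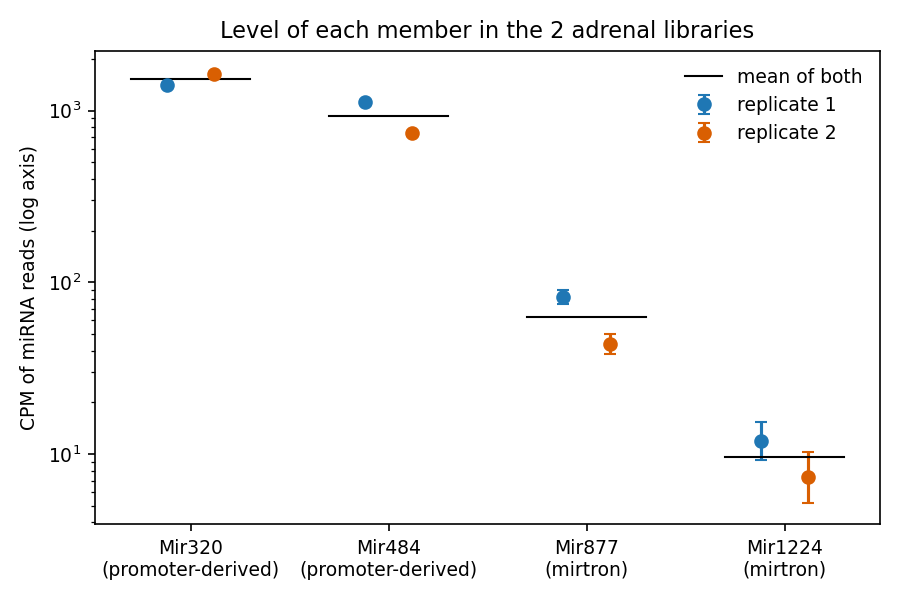
Points give the level of each member in CPM (log axis) in replicate 1 (blue) and replicate 2 (orange), with 95% Wilson intervals that are smaller than the point for Mir320 and Mir484, and lines give the mean. The order Mir320, Mir484, Mir877, Mir1224 held in both libraries, from means of 1520 and 930 CPM for the promoter-derived hairpins to 62.8 and 9.61 CPM for the mirtrons.

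Summed by kind, the promoter-derived hairpins exceeded the mirtrons 27.0-fold in replicate 1 and 46.4-fold in replicate 2. The sums were 12553 promoter-derived reads against 465 mirtron reads in replicate 1, and 10680 against 230 in replicate 2. On the log2 scale the ratio was 4.75 in replicate 1 (95% exact interval 4.62 to 4.89) and 5.54 in replicate 2 (5.35 to 5.73), with a mean of 5.15 ± 0.55 (SD, n = 2). Every pairing of a promoter-derived hairpin with a mirtron had the same direction in both libraries. The smallest was Mir484 over Mir877, at 13.7-fold in replicate 1 and 16.9-fold in replicate 2, and the largest was Mir320 over Mir1224, at 118-fold and 223-fold. The difference between the kinds was not tested against the spread between animals. A read of small RNA covers a whole mature miRNA, so reads were not divided by length in these ratios. With reads divided by hairpin length the summed ratio was 30.8-fold in replicate 1 and 51.5-fold in replicate 2. Differences between sequences in how readily they enter a library were not tested.

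The sum of the promoter-derived hairpins was close in both libraries, at 2531 CPM (replicate 1) and 2370 CPM (replicate 2), while its parts moved in opposite ways. The mirtrons summed to 93.7 CPM in replicate 1, against 51.0 CPM in replicate 2. Ratios within a library need no scaling between libraries. Mir320 was 1.25-fold Mir484 in replicate 1 (95% exact interval 1.21 to 1.30) and 2.21-fold in replicate 2 (2.12 to 2.31). Per base of hairpin that ratio was 1.03 in replicate 1 (0.989 to 1.06) and 1.81 in replicate 2 (1.74 to 1.88), so per base the promoter-derived pair did not differ beyond counting error in replicate 1. The ratios of Mir320 to the mirtrons differed between the libraries as well, with intervals that did not overlap. Mir320 was 17.2-fold Mir877 in replicate 1 (15.6 to 19.1) and 37.3-fold in replicate 2 (32.4 to 43.2). It was 118-fold Mir1224 in replicate 1 (91.7 to 156) and 223-fold in replicate 2 (159 to 324). For the ratios among the other 3 members the intervals of both libraries overlapped: Mir484 was 13.7-fold Mir877 in replicate 1 (12.4 to 15.2) and 16.9-fold in replicate 2 (14.6 to 19.6). Mir484 was 94.4-fold Mir1224 in replicate 1 (73.0 to 124) and 101-fold in replicate 2 (71.6 to 147). Mir877 was 6.88-fold Mir1224 in replicate 1 (5.23 to 9.20) and 5.97-fold in replicate 2 (4.11 to 8.91). Overlap of intervals does not show that these ratios were equal.

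Set against all detected genes, 3 of the 4 members differed between the libraries by more than counting error, as did 68.2% of the 377 genes tested. After TMM scaling, 2 members were higher in replicate 1 (beside 32.6% of all genes) and 1 was lower in replicate 1 (beside 35.5%). These background shares depend on the read minimum: with at least 1 read in either library, 15.4% of 831 genes were higher and 16.4% lower in replicate 1. Mir320 was lower in replicate 1, with a log2 ratio of replicate 1 over replicate 2 of -0.34 (95% exact interval -0.39 to -0.30; exact binomial test, adjusted p = 1.14e-45). Mir484 was 1.39-fold higher in replicate 1 (log2 ratio 0.47, 0.41 to 0.54; adjusted p = 1.83e-51, same exact test). Mir877 was 1.71-fold higher in replicate 1 (log2 ratio 0.77, 0.52 to 1.03; adjusted p = 7.08e-10, same exact test).

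For Mir1224 the log2 ratio of 0.57 had an interval from -0.07 to 1.23 and missed the threshold (exact binomial test, adjusted p = 0.105). Scaled by total miRNA reads, which moves every log2 ratio up by 0.13, Mir1224 passed it (log2 ratio 0.70, exact binomial test, adjusted p = 0.0415). The median over the members, whose ratios went both ways, was 0.52, beside -0.04 over all 377 genes. The general spread between the libraries was estimated from these same 2 libraries, so the differences under test were part of it. A missing call against it therefore says little. None of the 4 members passed a test against that spread. The exact test of edgeR, with 1 dispersion for all genes, gave them unadjusted p-values from 0.401 to 0.704 and adjusted p-values of 1, while it called 7 genes of the table. A larger absolute log2 ratio was held by 58.9% of the detected genes for Mir320, 48.0% for Mir484, 26.0% for Mir877 and 39.8% for Mir1224. These tests compare 2 libraries of 1 group.

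**Figure D3:**
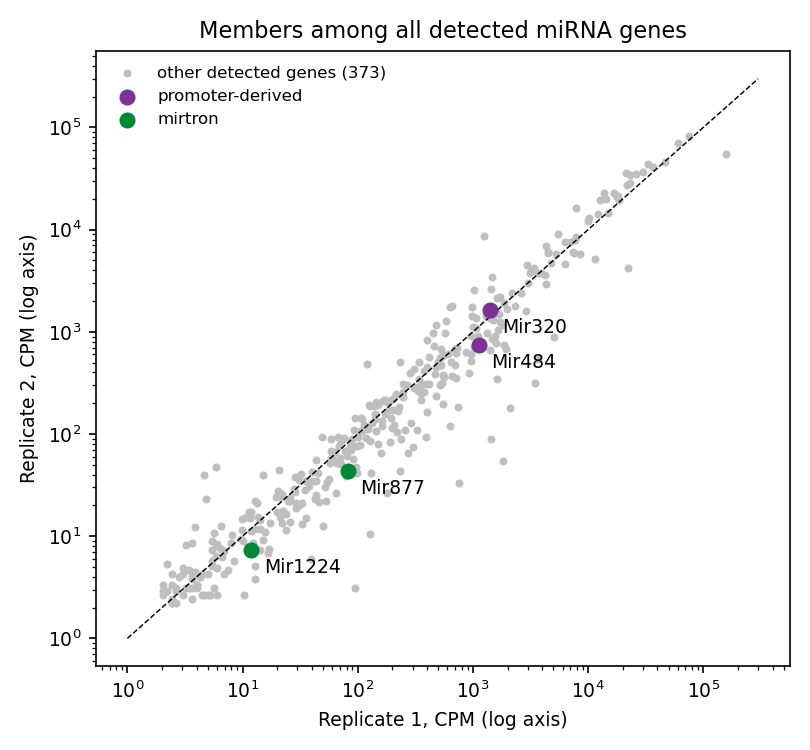
CPM in replicate 1 (horizontal, log axis) against CPM in replicate 2 (vertical, log axis) for the 377 detected genes, with the members in colour and the line of equal values dashed. Mir320 lies just above the line and the other 3 members just below it, all within the cloud of the other 373 genes.

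Other miRNAs known to depart from the standard route were also found in the tissue. Of these, 5 of 6 had at least 10 reads in both libraries, beside 17.1% of all miRNA genes, but the list too was chosen with earlier results known. Mir1839 and Mir664, which derive from small nucleolar RNAs that guide pseudouridylation, had 654 and 369 CPM (Mir1839) and 27.8 and 29.1 CPM (Mir664) in replicates 1 and 2. The mirtrons of the list spanned a wide range. Mir1981, which fills an intron of Marc2, reached 181 CPM (replicate 1) and 206 CPM (replicate 2), more than either mirtron member. Mir702, in Plod3, had 51.8 and 30.0 CPM, between Mir877 and Mir1224. Mir1982, in Oaz1, had 13 and 9 reads and missed the minimum. Mir451a, which is cut by Drosha but matures without Dicer and is typical of red blood cells, had 738 and 184 CPM.

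Between the libraries, Mir1839 (log2 ratio 0.70), Mir451a (1.87) and Mir702 (0.66) were higher in replicate 1, like Mir484 and Mir877. Mir1981 was lower in replicate 1 (log2 ratio -0.32), like Mir320. Mir664 had a log2 ratio of -0.19 with no call. The calls are from the exact binomial test, at an adjusted p under 0.05. Higher and lower values thus occurred within the mirtrons as well as within the promoter-derived pair. The members kept these directions under each of 3 scalings.

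**Figure D4:**
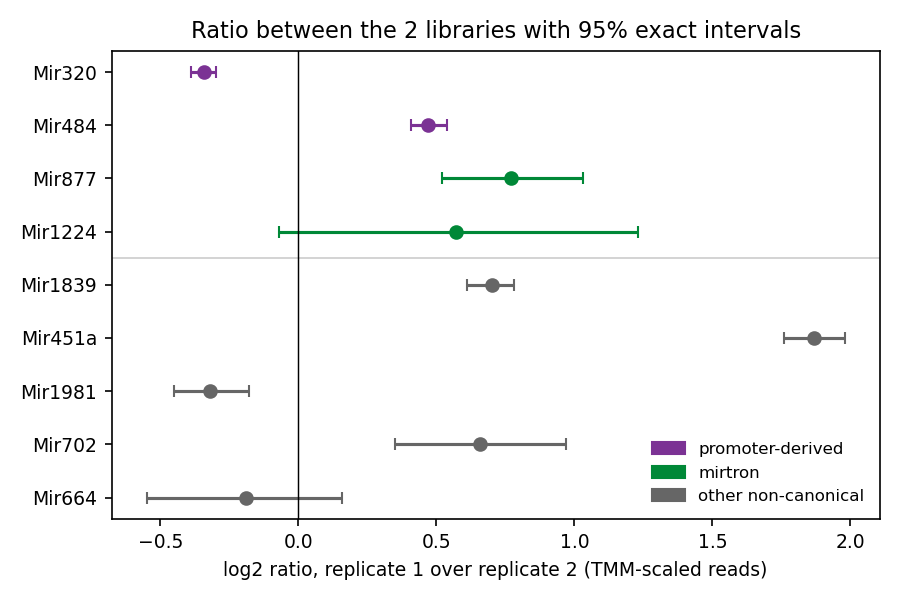
The log2 ratio of replicate 1 over replicate 2 of TMM-scaled reads (horizontal) is shown for the members and for 5 other non-canonical miRNAs (rows), with 95% exact intervals as bars. Mir320 (-0.34) and Mir1981 (-0.32) lie below 0, and the interval of Mir1224 crosses 0, as does that of Mir664.

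Listed by position alone, mirtrons were mostly at low levels. Of 23 miRNA genes with both ends within 5 bases of the ends of an intron, 7 were detected (30.4%, beside 17.1% of all miRNA genes), and 5 of 21 without the members. The 5 highest were Mir1981, Mir3102, Mir877, Mir3547 and Mir1224. Mir3102, in an intron of Arhgef17, reached 161 CPM (replicate 1) and 121 CPM (replicate 2). Mir3547, in an intron of Baiap3, had 12.3 and 8.65 CPM. Mir877 was the third and Mir1224 the fifth of this list by mean CPM, and the values of Mir1224 overlapped those of Mir3547 between libraries. The median of its 7 detected genes was 10.5 CPM, beside 150 CPM over all detected genes.

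Genes numbered Mir6896 to Mir7094, many of them predicted mirtrons, lay lower still. Of 201 such genes 7 were detected (3.48%, beside 17.1% of all miRNA genes), with a median of 3.68 CPM. The highest, Mir6944 in an intron of Dbn1, reached 6.05 CPM (replicate 1) and 8.43 CPM (replicate 2), and 15 of the 201 filled an annotated intron within 5 bases. Mir7083, Mir7018, Mir7069 and Mir6954 followed, with means from 2.79 to 4.38 CPM, Mir6954 with 20 and 7 reads. By mean CPM both mirtron members were above every gene of that group, though in replicate 2 Mir1224 (7.32 CPM) was below Mir6944.

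Near annotated starts the list was larger and of mixed kind. Of 234 hairpins within 250 bases of a start, 59 were detected (25.2%, beside 17.1% of all miRNA genes), with a median of 130 CPM. The 5 highest were Mir126a, Mir125a, Mir30d, Mir351 and Mir206, with means from 4933 to 105771 CPM. Each of these lay on the strand of the transcript whose start was near, unlike Mir320. In the configuration of Mir320 and Mir484, upstream of the nearest start on the opposite strand within 500 bases, there were 30 hairpins, a list made after the members' positions were seen. Of these 4 were detected (13.3%, beside 17.1% of all miRNA genes). Mir320 and Mir484, whose positions set the list, are among these 4, so the share detected includes them by construction. They had the highest means, then came Mir673 (339 and 502 CPM in replicates 1 and 2) and Mir1934 (2.82 and 3.99 CPM).

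**Figure D5:**
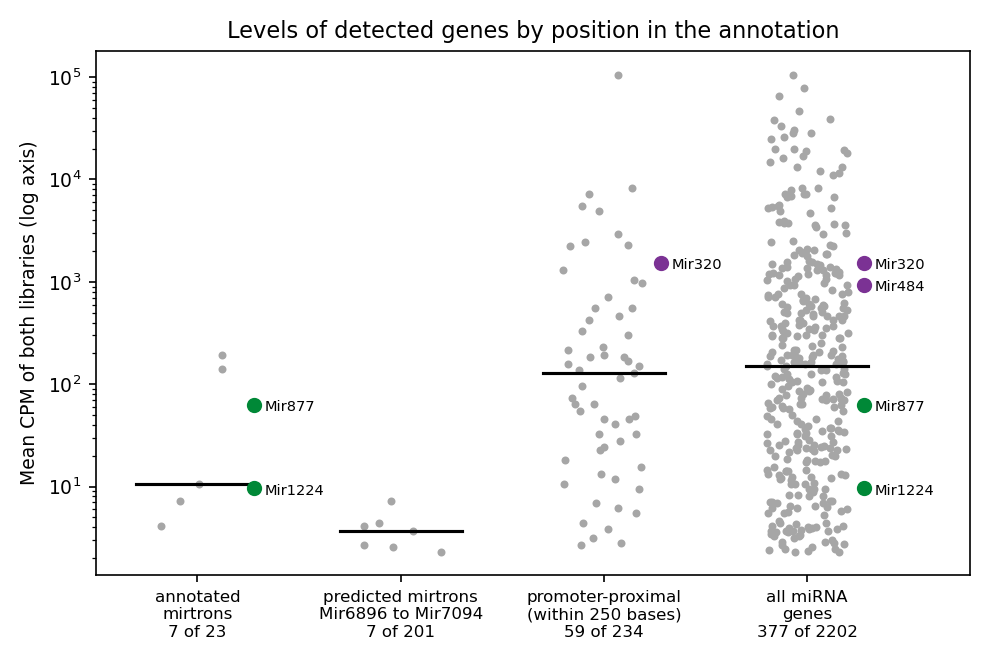
Mean CPM over both libraries (log axis) is shown for the detected genes of each list, with the median as a line, the members in colour and the number detected of the number listed under each name. Mir877 and Mir1224 fall among 7 detected mirtrons with a median of 10.5 CPM, whereas Mir320 and Mir484 lie above the median of 150 CPM of all 377 detected genes.

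The genes nearest in level to each member were named by the distance of log2(CPM + 1) over the 2 libraries, which describes level alone. For Mir320 they were Mir134 (1504 and 1619 CPM in replicates 1 and 2), Mir672 (1410 and 1520 CPM) and Mir342 (1600 and 1513 CPM). For Mir484 they were Mir18 (1020 and 710 CPM), Mir542 (1117 and 912 CPM) and Mir503 (972 and 605 CPM). Mir877 lay nearest to Mir3068 (83.9 and 43.3 CPM), Mir202 (78.8 and 38.4 CPM) and Mir187 (96.8 and 47.3 CPM). Mir1224 lay nearest to Mir6540 (13.9 and 7.32 CPM), Mir3547 (12.3 and 8.65 CPM) and Mir5113 (14.3 and 7.32 CPM). Among these neighbours, Mir3547 alone fills an annotated intron.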

How the data were processed

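The samples were 2 libraries of 1 group, so no comparison between conditions was made. The authors deposited whole-number read counts per miRNA gene, on mm10 with GENCODE M21 per the notes deposited with each library; neither aligner nor counting tool is named in the sources used here. Gene names and positions came from GENCODE M21, and sequences from RefSeq's table on GRCm38.p6, the same build. Each count table has no header; the column of reads on a gene's own strand was read from the totals. Rows that name no gene held 57.6% of the reads in replicate 1 and 60.1% in replicate 2 and were left out. CPM values were computed over reads of miRNA genes, and a gene with at least 10 reads in both libraries was called detected.

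Per gene, the split of reads between the libraries was tested with an exact two-sided binomial test (SciPy 1.17.1) against TMM-scaled library sizes (edgeR 4.0.16), with Benjamini-Hochberg adjustment over the 377 detected genes. The test compares these 2 libraries and covers counting error only. It was checked on simulated counts with counting error alone, which cannot show how it behaves under a wider spread. Hairpins were folded with RNAfold 2.7.2. Alternatives covered scaling (DESeq2 1.42.0 size factors among them), read minimum, strand column, length, error model and list windows. Named were the members, the 3 genes nearest to each in log2(CPM + 1), the listed non-canonical miRNAs and the 5 highest genes of each positional list. Members and lists were chosen with earlier results of these data known.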

Additional observations from a re-analysis of the deposited data

How the results depend on the processing

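The order of the 4 members and the direction of promoter-derived hairpins over mirtrons held under each alternative run. Scaling could not have changed them, since it multiplies all genes of a library alike. Nor could the strand column, in which the members had the same reads. Scaled to 1000000 reads of the whole table, mean levels were 624 (Mir320), 385 (Mir484), 26.1 (Mir877) and 3.98 (Mir1224); without the 10 most abundant genes in the total they were 3007, 1853, 125 and 19.2 CPM. In the column of reads on either strand Mir320 had 1803 CPM. The members' own reads did not change there, so the higher value came from a smaller total of miRNA reads. That total was 3942397 in replicate 1, against 4960537, and 4009427 in replicate 2, against 4506482. The column is not a sum of both strands: Mir126a, which overlaps Mir126b on the opposite strand, had 11 reads there in replicate 1, against 777971. The log2 ratio of promoter-derived hairpins over mirtrons, 5.15 in sum, was 7.34 for Mir320 over Mir1224, 3.93 for Mir484 over Mir877 and 6.61 for Mir484 over Mir1224. Scaled by total miRNA reads, Mir1224 passed the binomial threshold (log2 ratio 0.70); its adjusted p ran from 0.0415 to 1 over its alternatives. Under the exact test of edgeR Mir320 (-0.34), Mir484 (0.47) and Mir877 (0.77) had no call, and the counts of called genes were 7 higher in replicate 1 and 0 higher in replicate 2, where 5 had an unadjusted p under 0.05. Annotated mirtrons with at least 1 read in both libraries numbered 15, and with at least 100 reads 3. Leaving out a replicate leaves the value of the other, as given for each member, and with n = 2 says nothing of stability. No paired analysis was possible because the series has 1 group. The test between the libraries cannot be run without either of them. Mir1224, with 33 to 59 reads, is the member whose precision depth limits most.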
